A study of Mus musculus with 15 samples.

Results

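Exc_26 is 1 of the 26 excitatory clusters that the authors' table of cells lists for the mouse prefrontal cortex (PFC), and its members are all cells given that cluster name. It held 426 of the 35360 retained cells and 426 of the 20377 cells in excitatory clusters, with 246 cells from P60 mice and 180 cells from P21 mice. RNA was measured in single cells captured in droplets, where each mRNA molecule receives a unique molecular identifier (UMI), in 15 libraries of male C57BL/6N mice. The P60 mice (8-10 weeks in the labels) had self-administered saline or cocaine intravenously. They were taken at maintenance, after 48 h of withdrawal or after 15 days of withdrawal, with 2 libraries in each of these 6 groups. The paper describes catheter implantation at P60, before self-administration, so P60 names the starting age. By this schedule mice of later phases were older at collection, and phase cannot be told apart from that age. P60 libraries 1 and 4 were cocaine at maintenance and 2 and 3 its saline controls, 6 and 8 were cocaine at 48 h and 5 and 7 saline, and 9 and 10 were cocaine at 15 days and 11 and 12 saline. The 3 P21 libraries (3 weeks in the labels) came from mice with no self-administration, so the saline mice differ from them in age and also in the self-administration procedure. No library held both ages, so differences between the 2 sets of libraries cannot be told apart from age. Each P60 library pooled the PFC of 2 mice. The methods give 4 mice for the 3 P21 libraries, so it is not known whether these libraries share mice. The labels name the nucleus accumbens in the tissue field and the PFC as the source, and the paper describes dissection of the PFC. The retained cells held 1191 inhibitory neurons at P60 and 962 at P21 beside the 20377 cells in excitatory clusters. The markers of cells chosen as excitatory do not bear on the label.

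Cortical excitatory neurons divide by where they send their axons. Layer 5 pyramidal tract neurons project out of the cortex to the brainstem, midbrain and spinal cord, have thick dendrites and large somata, and fire at high rates over long axons rich in neurofilaments. Intratelencephalic neurons of the same layer stay within the cortex and striatum, near-projecting neurons stay local, and layer 6 holds corticothalamic neurons beside other intratelencephalic ones. The transcription factor Fezf2 and its downstream partner Bcl11b (also called Ctip2) are known for setting the pyramidal tract fate, and Pou3f1 marks these cells in the adult cortex.

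The cells were spread unevenly over the libraries. P60 libraries 1 and 2 held 0 Exc_26 cells of 570 and 321 excitatory neurons, which allows shares of up to 0.5263% and 0.935% by a limit of 3 counts (upper bounds of the two-sided exact 95% intervals, 0.645% and 1.14%), and libraries 3 and 6 held 4 and 6 cells. The other P60 libraries held 11 (library 4), 10 (library 5), 39 (library 7), 38 (library 8), 48 (library 9), 22 (library 10), 35 (library 11) and 33 cells (library 12), and the P21 libraries held 114, 29 and 37. The 11 libraries with at least 10 cells entered the levels and tests, 4 of saline, 4 of cocaine and 3 of P21, and none of the saline libraries of the maintenance phase was among them. The summed UMIs of the cluster in these libraries ranged from 155264 (P60 library 5) to 1690388 (P21 library 1). No barcode was shared between Exc_26 cells, and 23 of them had a barcode that a retained cell of another library also had. The authors' column of cell classes gave 9 of the 426 cells another class (3 astrocytes, 3 endothelial cells, 2 microglia and 1 newly formed oligodendrocyte), and all 9 were from P21.

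Pooled over cells, Exc_26 made up 1.70% of the excitatory neurons at P60 and 3.03% at P21. By library the share was 4.59%, 1.87% and 1.94% at P21 and between 0% and 4.16% at P60, so that P21 library 1 alone lay above all P60 libraries. The mean was 2.80% ± 1.55 (SD, n = 3) at P21 and 1.55% ± 1.24 (SD, n = 6) in saline mice, and the difference was within the spread between libraries (two-sided exact permutation test over 84 splits, p = 0.226). Without P21 library 1 the P21 mean was 1.91%. Cocaine and saline libraries had means of 1.56% ± 1.43 and 1.55% ± 1.24 (SD, n = 6 each; two-sided exact permutation test within phases, p = 0.991). P21 cells had received their cluster names by likeness to the clusters of adult cells, and no share separates fewer cells from fewer cells captured or recognised.

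**Figure D1:**
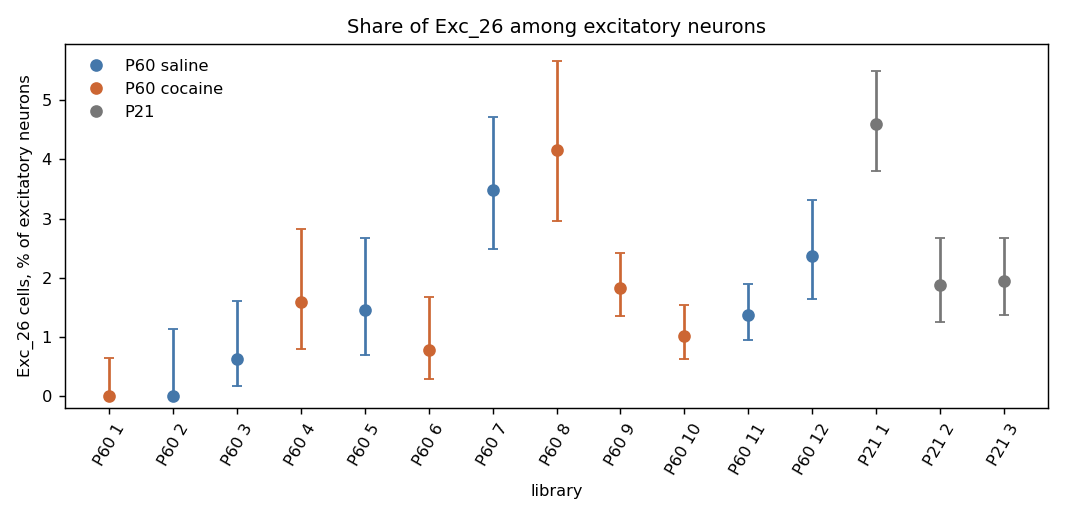
Share of Exc_26 cells among the excitatory neurons of each library, in percent, coloured by group, with exact 95% binomial intervals that cover counting error only. P60 libraries 1 and 2 sit at 0%, libraries 7 and 8 at 3.48% and 4.16%, and P21 library 1 at 4.59%.

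Against the other excitatory clusters, the cells carried the genes of pyramidal tract neurons. The values that follow describe the cluster and are no test, since the clusters were made from these genes in these cells. P21 cells were assigned to them by likeness to adult cells, so P21 levels are no independent check. Levels are in CPM (UMI counts scaled to the same library total), taken over the UMIs summed over the Exc_26 cells of a library. Of 14 pyramidal tract markers, 11 had their highest mean in Exc_26, among them Slco2a1 with levels near 0. Of the 9 that reached 20 CPM in a cluster 7 were highest there, beside 12.9% of all 7776 genes at that level, but Pou3f1, Fam84b, Cacna1h and Oma1 reached it through Exc_26 alone, so nothing is read from this count. Their summed level lay between 1572 and 1886 CPM in the 8 P60 libraries and between 2003 and 2155 CPM at P21. At P60 the next cluster, Exc_20, had a mean of 1139 CPM and the median of the other clusters was 475 CPM. Each of the 8 P60 libraries of Exc_26 thus lay above the P60 mean of every other cluster. Single clusters were not summed at P21, where the other excitatory neurons together were at 595 to 717 CPM. A large part of the sum was Crym, in which Exc_26 ranked behind Exc_20. After thinning each cell to 5000 UMIs, 80.6% of the 237 remaining P60 cells held UMIs of 3 or more of these markers, as did 90.1% of the 152 at P21. The same share was 7.57% in the other excitatory clusters at P60, 3.50% in inhibitory neurons and 0.846% in endothelial cells, which should lack most of these genes. At P21 it was 13.9%, 0.4934% and 0.797% in the same order.

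Pou3f1, a POU domain transcription factor, was at 49.2, 63.3, 142 and 81.5 CPM in saline libraries 5, 7, 11 and 12, at 47.5, 87.3, 132 and 126 CPM in cocaine libraries 4, 8, 9 and 10, and at 89.4, 85.6 and 149 CPM at P21. All 8 P60 libraries lay above every other cluster, of which Exc_1 was the next with 18.1 CPM, a ratio of 5.03 between the means. A UMI of Pou3f1 was found in 63.8% of the P60 cells (41.4% after thinning), in 4.41% of the other excitatory neurons (2.09% after thinning) and in 1.18% of inhibitory neurons (0.699% after thinning); the median depths, without mitochondrial and ribosomal protein genes, were 14459.5, 12426 and 7192 UMIs per cell. Bcl11b, the factor of pyramidal tract fate, was also above every other cluster in 8 of 8 libraries, at 274 ± 47.3 CPM (SD, n = 8) against 180.1 CPM in Exc_21. Fezf2, its upstream factor, was at 222 ± 76.2 CPM (SD, n = 8) and was second to Exc_21 with 239 CPM, a difference within the spread of the libraries. Crym, a thyroid hormone binding protein of deep layers, ranked behind Exc_20 (899.7 CPM) and another cluster at 844 ± 285 CPM (SD, n = 8). Bcl6, a transcriptional repressor, was low everywhere but 4.70 times the next cluster at 16.8 ± 6.00 CPM (SD, n = 8), and the lower markers Npr3 (16.4 CPM), Npsr1 (8.49 CPM), Hpgd (7.56 CPM) and Slco2a1 (0.508 CPM) were under 20 CPM.

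The genes that stood out most by ratio to the next cluster were Fam84b and Gprc5b. Fam84b (chromosome 15, 60650551 to 60656635, minus strand, mm9) was at 22.6 ± 8.18 CPM (SD, n = 8) at P60 against 1.23 CPM in Exc_20, a ratio of 18.4, and no P60 library of Exc_26 fell below 13.3 CPM. Gprc5b, an orphan G protein-coupled receptor (chromosome 7, 126115554 to 126138725, minus strand), was at 35.6 ± 12.8 CPM (SD, n = 8) against 1.98 CPM in Exc_4, a ratio of 18.0. At P21 their means were 31.7 ± 11.4 and 54.9 ± 15.5 CPM (SD, n = 3). All 20 genes with the highest ratios were also highest in Exc_26 at P21, where cells were assigned by likeness to adult clusters, so this is no independent check. After Pou3f1 with a ratio of 5.03, the other 17 of the 20 had ratios between 2.66 and 4.49. They were Tanc1, 6430573F11Rik, Oma1, Parm1, Gng7, Tcerg1l, Tdo2, Clcn2, Cda, Cacna1h, Chst8, Nefh, Fam126a, Kcnn2, Pex5l, Ndrg1 and St8sia1. Parm1, a mucin-like membrane protein, ranged from 47.5 CPM (library 4) over a median of 145 to 286 CPM (library 11), with 39.4 CPM in Exc_15. Chst8, a sulfotransferase of the Golgi, ranged from 54.3 over 122 to 156 CPM, with 36.9 CPM in Exc_7. Pex5l, which is known for setting the surface level of HCN channels in dendrites, ranged from 95.0 over 132 to 217 CPM, with 49.9 CPM in Exc_3. Library 4, with 11 cells, was the lowest of the 8 for each of Parm1, Chst8 and Pex5l, and libraries 4 and 5, with 11 and 10 cells, fell among the other clusters for several of the 20 genes.

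**Figure D2:**
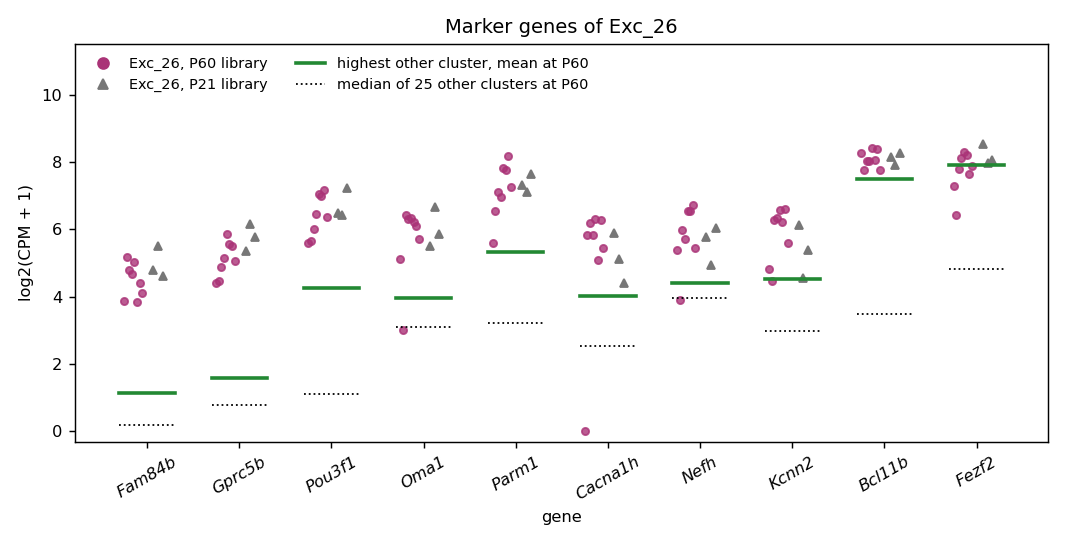
Levels of 10 genes in Exc_26 as log2(CPM + 1), circles for the 8 P60 libraries and triangles for the 3 P21 libraries, with the mean of the highest other excitatory cluster at P60 (bar) and the median of the 25 other clusters (dotted line). Fam84b, Gprc5b, Pou3f1 and Bcl11b lie above the bar in all P60 libraries, Cacna1h is at 0 CPM in library 4, and Fezf2 lies on both sides of the bar.

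Ion channels and axonal genes stood on both sides. Of all 7776 genes that reached 20 CPM in at least 1 cluster, 12.9% were highest in Exc_26 and 7.28% lowest, the shares beside which the counts of the next lists stand. A gene that reached that level in Exc_26 alone counts as highest by this rule, so the counts are a description. Of 23 sodium and calcium channel genes at 20 CPM in a cluster, 5 were highest in Exc_26 (21.7%) and none was lowest. Cacna1h, a low-voltage-activated T-type calcium channel, was at 51.9 ± 26.5 CPM (SD, n = 8) against 15.3 CPM in Exc_5, and library 4 held 0 UMIs, which allows up to 20.4 CPM there. Scn1a, a sodium channel subunit of fast-firing neurons, was at 129 ± 62.1 CPM (SD, n = 8) and above every other cluster in 4 of 8 libraries. Of 27 HCN and potassium channel genes, Kcnn2, a small-conductance calcium-activated channel, was highest at 64.4 ± 29.1 CPM (SD, n = 8). Another 5 of the 27 were lowest in Exc_26 (18.5%): Kcna4 (6.9999 CPM), Kcnc1 (18.7 CPM), Kcnc2 (0.405 CPM), Kcnip2 (3.85 CPM) and Kcnh1 (9.93 CPM), which are voltage-gated channels or, for Kcnip2, a subunit that binds Kv4 channels. In library 5, 3 counts amount to 21.1 CPM, above all 5 of these means. In library 8 they amount to 4.29 CPM, above the means of Kcnc2 and Kcnip2, so these ranks are a description only. Of 25 neurofilament and axonal transport genes, 5 were highest in Exc_26 and 1 lowest. Nefh, the heavy neurofilament, was at 62.3 ± 31.1 CPM (SD, n = 8) against 20.3 CPM in Exc_3, while its partners Nefl and Nefm were second to Exc_18. Mapt, the microtubule-associated protein tau, was the lowest of the 26 clusters at 447 ± 40.1 CPM (SD, n = 8), with 516 CPM in the next lowest.

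Among 30 axon growth and guidance genes, 4 were highest (Gap43, Nrcam, Robo1 and Epha5, 13.3%) and 3 lowest (Basp1, Marcks and Slit1), with the share highest close to the 12.9% of all genes. Gap43, a growth cone protein, was at 2573 ± 243 CPM (SD, n = 8) and above every other cluster in 8 of 8 libraries, against 2011 CPM in Exc_7. Marcks and Basp1 share with Gap43 a place at the inner face of the membrane, and yet Marcks was at 79.3 ± 20.1 CPM (SD, n = 8), below the 98.0 CPM of the next lowest cluster. Among 24 genes of synaptic vesicle release, 4 were highest (Cplx1, Syt11, Sv2b and Doc2a, 16.7%) and 1 lowest. Cplx1, a complexin that clamps fusion, was at 315 ± 95.6 CPM (SD, n = 8), and Stx1a, a syntaxin of the release machinery and the lowest, at 234 ± 30.7 CPM against 265 CPM in Exc_21. Of the 13 ionotropic glutamate receptor genes, Gria3 and Grik2 were highest and Gria4 lowest. Of the 11 GABA-A receptor subunits, 3 were highest (27.3%) and 2, Gabra4 and Gabrb1, lowest (18.2%).

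Other genes stood lower in Exc_26 than in any other cluster. The 10 genes with the lowest ratio to the next lowest cluster were Ncald, Per3, Kcnv1, Nptx1, Neurod6, Car10, Hmgb3, Pak7, Cgrrf1 and Fmnl1, which were named after their values were seen. Ncald, a neuronal calcium sensor, lay between 66.5 and 259.8 CPM in the 8 P60 libraries, while the next lowest cluster, Exc_1, had a mean of 550.5 CPM and the median cluster 1200.2 CPM. Neurod6, a transcription factor of cortical excitatory neurons, was at 81.7 ± 24.7 CPM (SD, n = 8) against 180.1 CPM in Exc_4, and Nptx1, a pentraxin of excitatory synapses, at 23.5 ± 12.6 CPM (SD, n = 8) against 59.5 CPM in Exc_16. Of these 10 genes, 9 were also the lowest of the 26 clusters at P21, and Hmgb3 was the second lowest. The assignment of P21 cells by likeness to adult clusters makes this no independent check.

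The 4 excitatory neuron markers summed to between 5529 and 6708 CPM in the P60 libraries and between 5131 and 6065 CPM at P21, rank 17 of the 26 clusters at P60. Markers of other layers and cells were also summed. The 4 layer 2/3 markers summed to between 7.02 and 80.1 CPM at P60, the near-projecting markers to between 1.67 and 20.4 CPM (Exc_21 had 2530.4 CPM), and the layer 6 corticothalamic markers to between 30.1 and 77.4 CPM (Exc_19 had 2597 CPM). The 5 layer 5 intratelencephalic markers, which include Etv1, summed to between 169 and 414 CPM, rank 10 of the 26 clusters, with a mean of 249 CPM against a median of 168.7 CPM over the other clusters. The 4 layer 6 intratelencephalic markers summed to between 38.5 and 421 CPM at P60 and between 209 and 387 CPM at P21, rank 5 of 26 with a median of 24.3 CPM over the other clusters. Their sum was mostly Nnat, an imprinted proteolipid (207 CPM, rank 3), while Oprk1 and Osr1 were at 0. The layer 6b markers were at 66.95 CPM in P60 library 11 and at or near 0 in the others, and 20 UMIs of Cplx3 and 6 UMIs of Nxph4 in that library came from 1 cell for each gene. At P60 the 6 inhibitory markers summed to between 0 and 49.9 CPM with Slc32a1 at 0, the 4 astrocyte markers to between 0 and 9.97 CPM with Gfap at 0, the 4 oligodendrocyte markers to between 66.5 and 142 CPM, the 5 microglia markers to between 12.6 and 28.5 CPM (mean 21.9 CPM, the highest of the 26 clusters beside 21.7 CPM in Exc_4) and the 3 endothelial markers to between 0 and 12.2 CPM. The inhibitory markers had a mean of 16.4 CPM, rank 3 of the clusters, against a median of 8.94 CPM over the others. At P21 the ranges of these 5 lists were 22.3 to 84.5, 0 to 37.2, 168 to 752, 7.45 to 74.3 and 0 to 78.3 CPM.

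By correlation of mean log2 levels over 9707 genes, the clusters most like Exc_26 were Exc_25 (r = 0.936), Exc_18 (r = 0.926) and Exc_12 (r = 0.925), a description over genes measured in the same libraries.

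The cells of Exc_26 held more UMIs and more mitochondrial transcripts than the other excitatory neurons of the same library. The median UMIs per cell were higher in 11 of 11 libraries, by 2541 ± 1461 on average (SD, n = 11; two-sided exact sign-flip permutation test, p = 0.000977, the smallest that 11 libraries can give). Median genes per cell were higher in 11 of 11 libraries, by 391 ± 170 (SD, n = 11; same exact test, p = 0.000977). Among the 26 clusters the pooled median of 16065.5 UMIs at P60, counted over all genes, ranked 8, with 21320 in Exc_15, and genes per cell also ranked 8; at P21 the ranks were 8 and 7. Against the 3 most similar clusters the UMIs were higher in 10 of 11 libraries, by 1289 ± 970 (SD, n = 11; exact permutation test, p = 0.00293). The cells held between 1368 and 6769 genes each.

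The share of UMIs from the mitochondrial genome, which encodes 13 subunits of the respiratory chain and ATP synthase, was 4.30%, 3.06%, 2.09% and 4.80% in saline libraries 7, 12, 5 and 11. It was 2.40%, 3.29%, 4.96% and 3.33% in cocaine libraries 4, 8, 9 and 10, and 3.62%, 4.31% and 5.03% at P21, each as the median over cells. The other excitatory neurons lay between 2.18% and 2.55% at P60 and between 3.05% and 3.67% at P21. Exc_26 was higher in 9 of 11 libraries, by 1.11 ± 0.958 percentage points (SD, n = 11; two-sided exact sign-flip permutation test, p = 0.00391), and lower in libraries 4 and 5, which have 11 and 10 cells. Within the P60 libraries the difference was 1.20 ± 1.10 (SD, n = 8; exact p = 0.0313), within P21 it was 0.889 ± 0.494 (SD, n = 3), where the exact test cannot go below p = 0.25, and against the 3 most similar clusters 0.684 ± 0.980 (SD, n = 11; exact p = 0.0439). Over all P60 cells the median was 3.93%, the highest of the 26 clusters, with 2.93% in Exc_12, and at P21 it was the seventh highest. The paper took abnormally high mitochondrial mRNA as a sign of dead or dying cells and filtered on it. The part of cell condition in this share was not tested.

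The nuclear genes of oxidative phosphorylation, which were counted without the mitochondrial ones, stood high as well. These genes encode the imported subunits of the electron transport chain (complexes I to IV) and of ATP synthase. Of 74 measured, 41 were highest in Exc_26 among the 26 clusters at P60 (55.4%, beside 12.9% of all genes), and 29 of 73 at P21 (39.7%, beside 8.74%). By complex these were 18 of 36 genes of complex I, 1 of 4 of complex II, 5 of 8 of complex III, 7 of 9 of complex IV and 10 of 17 of ATP synthase. In each of the 11 libraries between 51 and 70 of the 74 genes were higher in Exc_26 than in the other excitatory neurons, which is 68.9% to 94.6%, while 42.9% to 54.4% of all 7776 genes were. Cox7c, a small subunit of complex IV, was at 1728 ± 296 CPM (SD, n = 8) against 1523 CPM in Exc_12, Cox5b at 1661 ± 218 CPM against 1501 CPM in Exc_12, and Atp5j2, a subunit of ATP synthase, at 1272 ± 133 CPM against 996 CPM in Exc_13, each above every other cluster in 8 of 8 libraries. These 3 genes were named after their values were seen. As with the markers, this describes a cluster made from these cells, and CPM are shares of the RNA counted, so that more RNA of these genes cannot be told apart from less of others.

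**Figure D3:**
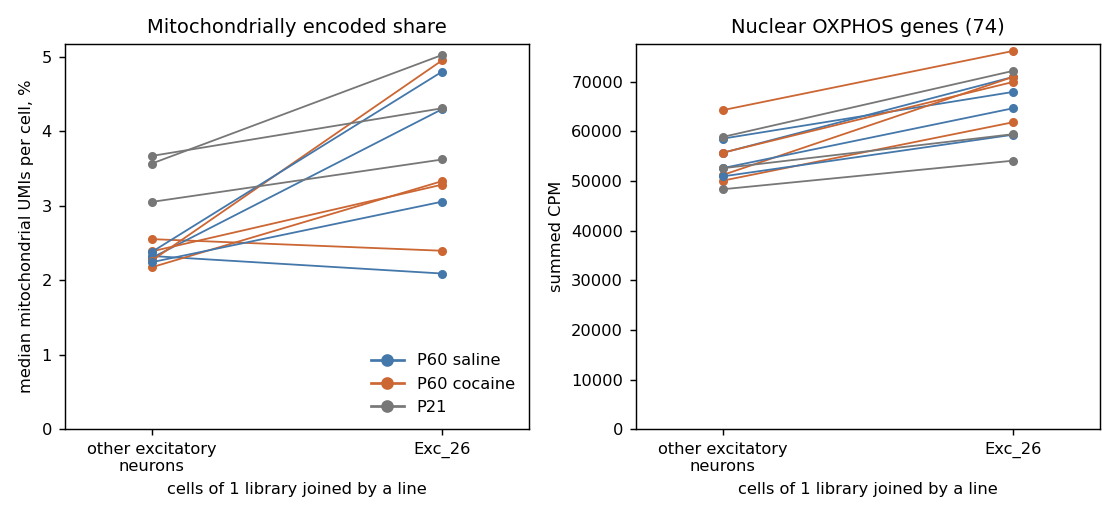
Left, median percent of UMIs from the mitochondrial genome in other excitatory neurons and in Exc_26, and right, summed CPM of 74 nuclear oxidative phosphorylation genes, with a line for each of 11 libraries coloured by group. The right-hand lines rise in all 11 libraries, from between 48354 and 64294 CPM to between 54113 and 76223 CPM, and the left-hand lines rise in 9.

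The study asked which genes change between adolescence and adulthood, and Exc_26 was compared between the 4 saline P60 libraries and the 3 P21 libraries. The median UMIs per Exc_26 cell were 14194, 9274 and 7943 in the P21 libraries. They were 15779.5, 16517, 16094 and 17159 in saline libraries 5, 7, 11 and 12, and the part of depth in the changes was not tested. Junb, Fos, Marcksl1 and Tomm20 were lower and Id2 and Faim2 higher at P60. Of 6529 genes tested on summed UMIs with edgeR's quasi-likelihood test, 81 passed an adjusted p of 0.05 and a 1.5-fold change, which is 1.24%. Of these, 16 were higher at P60 (0.245%) and 65 lower (0.996%), and the median log2 change of all genes was 0.02. With DESeq2 67 genes passed. The counts rested on single libraries: without P60 library 7 there were 14 calls, without P60 library 5 129 and without P21 library 1 139. At an unadjusted p under 0.05 there were 897 genes. In 453 genes (6.94%) every saline library lay above every P21 library and in 436 (6.68%) below.

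Junb and Fos are transcription factors that neurons switch on within minutes of activity, and both are known to respond through the cAMP response element binding protein. Their promoter sequences are shown because these were the called immediate early genes whose libraries did not overlap between the ages. They are the 250 bases before the start of each gene in RefSeq (GRCm38.p6), written 5′ to 3′ on the strand of the gene, for Junb chr8:84978749-84978998 (minus) and for Fos chr12:85473640-85473889 (plus). Capitals mark TGACG, the 5-base core of the cAMP response element.

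Junb: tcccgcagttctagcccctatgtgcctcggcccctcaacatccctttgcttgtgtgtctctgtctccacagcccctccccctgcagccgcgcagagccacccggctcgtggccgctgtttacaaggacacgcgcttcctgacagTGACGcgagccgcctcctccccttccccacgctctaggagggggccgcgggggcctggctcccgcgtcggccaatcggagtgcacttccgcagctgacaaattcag
Fos: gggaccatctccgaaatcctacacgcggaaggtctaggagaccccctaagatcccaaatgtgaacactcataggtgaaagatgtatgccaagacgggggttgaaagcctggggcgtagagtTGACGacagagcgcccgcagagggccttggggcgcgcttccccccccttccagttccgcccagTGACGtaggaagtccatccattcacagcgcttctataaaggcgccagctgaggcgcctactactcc

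Junb held 1 match, 106 to 102 bases before the start, and Fos 2, at 129 to 125 and 66 to 62 bases. On either strand TGACG is found in 17.8% of the 32851 promoters of this length, and the full element TGACGTCA in 1.55%, which neither promoter holds. A match is a description of the letters and no evidence of binding.

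Junb was at 168, 201 and 172 CPM at P21 and at 14.05, 36.7, 16.2 and 51.0 CPM in saline libraries 5, 7, 11 and 12. The groups did not overlap, and the log2 change was -2.45 (SE 0.28, edgeR adjusted p = 4.26e-05). Fos was at 105, 115 and 125 CPM at P21 and at 0, 26.7, 44.6 and 55.0 CPM at P60, with a log2 change of -1.61 (SE 0.32, edgeR adjusted p = 0.0103). Library 5 held 0 UMIs of Fos, which allows up to 21.1 CPM, and without library 7 the call for Fos was lost. Of the Fos UMIs, 28 of 161, 14 of 31 and 10 of 37 lay in 1 cell of P21 libraries 1, 2 and 3. Of 25 immediate early genes 13 were tested and 3 fell, beside 0.996% of all genes, namely Junb, Fos and Jun, the last with overlapping libraries (log2 change -1.51, edgeR adjusted p = 0.0221). The median log2 change of the 13 was -0.89. Egr1 and Nr4a1, which are induced with them, had log2 changes of -0.59 and -1.08 and did not pass (edgeR adjusted p = 0.349 and 0.0924). In the other excitatory neurons of the same libraries the log2 changes of Junb and Fos were -2.19 and -1.19.

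The other falls with the smallest p were in genes of varied roles. Marcksl1, a calmodulin and actin binding protein of growing neurites, was at 159.8, 305 and 304 CPM at P21 and at 0, 43.3, 20.3 and 12.2 CPM in the saline libraries, with a log2 change of -3.37 (SE 0.42, edgeR adjusted p = 0.00343). Hist1h2bc, a histone H2B gene, had a log2 change of -2.28, and Pfn1, an actin monomer binding protein, of -1.71. Tomm20, the import receptor of the outer mitochondrial membrane, was at 305, 156 and 166 CPM at P21 and between 42.1 and 75.4 CPM in saline mice, with a log2 change of -1.73 (SE 0.25, edgeR adjusted p = 0.000884). The remaining genes of this set were Arhgdig (-1.50), Tm2d1 (-1.47), Atxn7l3b (-1.52), Mrps24, a mitochondrial ribosomal protein (-2.02), and Serf1 (-1.31). Of the 10 falls, Mrps24 alone lost its call when a single library was left out, P21 library 1. Other settings also cost calls. With the cocaine P60 libraries added, Tomm20, Pfn1 and Tm2d1 lost theirs, at log2 changes of -1.25, -1.37 and -1.05. Pfn1 and Tm2d1 also lost theirs with equal cells per library, and Mrps24 with DESeq2. The other excitatory neurons had log2 changes of -2.76 for Marcksl1, -2.03 for Hist1h2bc, -1.96 for Pfn1 and -1.74 for Tomm20.

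Fewer genes rose than fell in the comparison of all 7 libraries (16 and 65), but without P21 library 1 there were 77 rises and 62 falls, so that library decided which direction was the larger. Id2, an inhibitor of basic helix-loop-helix factors, was at 327, 331 and 229.8 CPM at P21 and at 906, 563, 625 and 589 CPM in saline libraries 5, 7, 11 and 12, a log2 change of 1.16 (SE 0.21, edgeR adjusted p = 0.00432). Faim2, an inhibitor of Fas-driven cell death in neurons, was at 310.5, 223 and 196 CPM and at 709, 545, 497 and 475 CPM, a log2 change of 1.15 (SE 0.21, edgeR adjusted p = 0.00439). Both sets of libraries lay apart. In the test, given below, of whether a change differed from the other excitatory neurons, Id2 passed as higher with edgeR but not with DESeq2. Ass1, an enzyme of arginine synthesis, rose by 1.85 on the log2 scale, Pfkl and Eno2, enzymes of glycolysis, by 1.10 and 0.89, Hspa1a, an inducible Hsp70 chaperone, by 1.74, Nrsn2, a neuronal membrane protein, by 1.00, Cplx2, a complexin, by 0.94, Rbm3, a cold-induced RNA binding protein, by 0.90, and Psmc5, a proteasome ATPase, by 0.86. Of the 10 rises, 8 lost their call when some single library was left out, and Id2 and Faim2 kept theirs in all 7 of these fits.

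**Figure D4:**
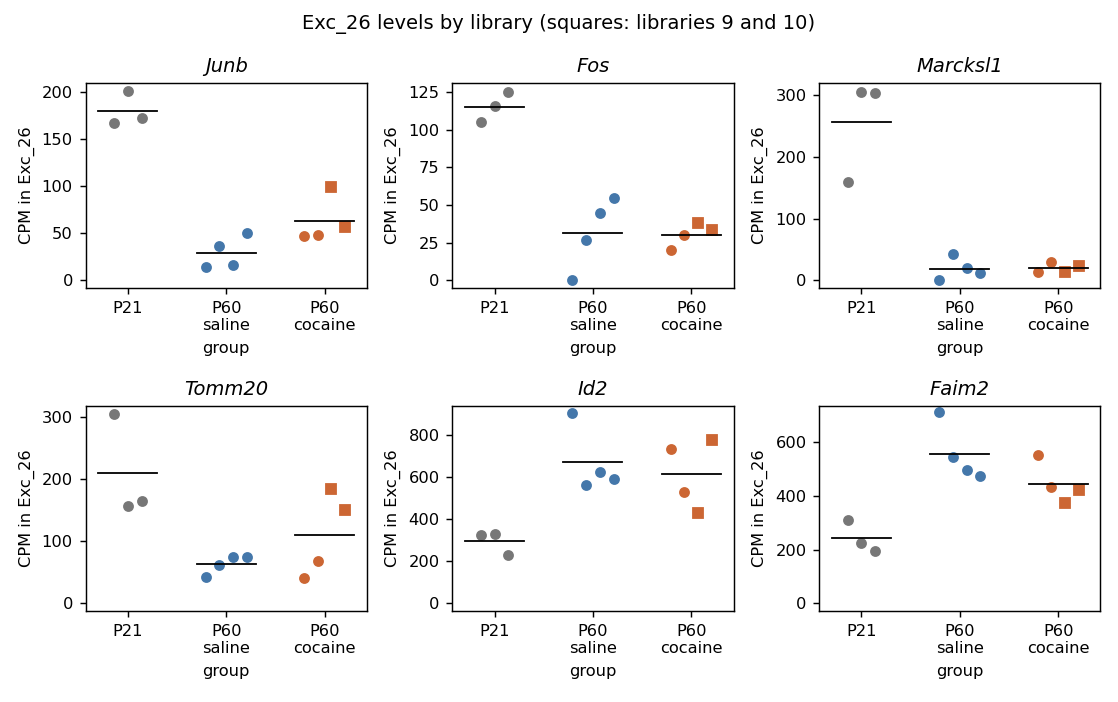
CPM of 6 genes in Exc_26 by library, for P21, P60 saline and P60 cocaine, with group means as lines and P60 libraries 9 and 10 as squares. Junb, Fos, Marcksl1 and Tomm20 are lower and Id2 and Faim2 higher in every saline library than in every P21 library, and Tomm20 is at 184 and 149.6 CPM in libraries 9 and 10.

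No single pyramidal tract marker passed. Of 14, 9 were tested, and their median log2 change was -0.22. Their summed level was nevertheless lower in each saline library (1572 to 1858 CPM) than in each P21 library (2003 to 2155 CPM), given as a description. Pou3f1 had a log2 change of -0.25 (SE 0.27, edgeR adjusted p = 0.753) and Bcl11b of -0.10 (SE 0.19, edgeR adjusted p = 0.872). None of 73 nuclear oxidative phosphorylation genes passed, with a median of 0.20. Of 25 axon growth genes tested, 2 fell (Marcksl1 and Dpysl3, a collapsin response mediator of growing axons, log2 change -1.20), beside 0.996% of all genes, and the median was -0.36. Of 14 cholesterol synthesis genes, Sc4mol, a sterol methyl oxidase, rose by 1.27 on the log2 scale, beside 0.245% of all genes, and the median was 0.77. Of 10 epigenetic regulators tested, 2 rose (Prmt1, an arginine methyltransferase, by 1.09, and Hspa1a) and 2 fell (Dnmt3a, a DNA methyltransferase, log2 change -1.35, and Yeats4, a histone reader, -1.23), beside 0.245% and 0.996% of all genes. The study picked this list from these libraries, so the counts are no independent evidence of direction. By RNA staining of tissue sections, the study reported Hspa1a higher at P60 in neurons marked by Pou3f1. It reported Marcksl1 lower at P60 in neurons marked by Tshz2 or Foxp2. No HCN or potassium channel gene of 21, sodium or calcium channel gene of 18, glutamate receptor gene of 13 or GABA-A subunit of 11 passed.

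Mbp, the myelin basic protein of oligodendrocytes, fell by 1.23 on the log2 scale (edgeR adjusted p = 0.0113). It was the 1 called of 2 oligodendrocyte markers tested, beside 0.996% of all genes. Of its UMIs, 84 of 294 in P21 library 1 and 45 of 106 in P21 library 3 lay in 1 cell, and the call was lost without P21 library 3 or P60 library 7. The part of oligodendrocyte RNA in the age changes was not tested. Calb1, a calcium buffer that is also a layer 2/3 marker, was at 28.0, 41.0 and 23.7 CPM at P21 and between 1.67 and 14.3 CPM in saline mice (log2 change -2.32, edgeR adjusted p = 0.0243), and its call was lost without P21 library 2. Of its UMIs, 17 of 43, 6 of 11 and 3 of 7 lay in 1 cell of P21 libraries 1, 2 and 3. Calb1 was the only layer 2/3 marker of 2 tested to pass, beside 0.996% of all genes. With the cells of the authors' excitatory class alone, a setting added after seeing the data, 82 genes passed. Among the other excitatory neurons 2391 of 13218 genes passed (18.1%), 987 higher (7.47%) and 1404 lower (10.6%), from many more cells, so that the number of calls in Exc_26 says little of how many genes changed.

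Whether a change differed between Exc_26 and the other excitatory neurons was tested within libraries. Of 12020 genes, 31 passed with edgeR (0.258%), 17 with a higher (0.141%) and 14 with a lower difference (0.116%), and DESeq2 called 4: Bcl11b, Cxcl12, Nrip3 and Cplx2. The edgeR count was 14, 16 and 18 without P21 libraries 1, 2 and 3, and 18 without P60 library 12. Bcl11b (chromosome 12, 109148613 to 109241812, minus strand, mm9) was at 282, 238 and 307.5 CPM at P21 and at 218, 259.9, 331 and 216.04 CPM in saline libraries 5, 7, 11 and 12 in Exc_26. In the other excitatory neurons it was at 45.8, 58.2 and 60.1 CPM and at 25.9, 21.2, 26.4 and 21.2 CPM. The libraries of Exc_26 overlapped between ages and those of the other neurons did not, and the log2 difference of the changes was 1.05 (SE 0.19, edgeR adjusted p = 3.39e-05). Cxcl12, a chemokine, was at 177, 164 and 179 CPM at P21 and at 49.2, 178, 233 and 120.2 CPM at P60 in Exc_26, with a log2 difference of 1.41 (SE 0.20, edgeR adjusted p = 7.02e-09). The other neurons went from 54.0, 48.9 and 45.3 CPM to 13.2, 17.9, 18.8 and 14.4 CPM. Nrip3, a nuclear receptor interacting protein, had a log2 difference of 1.22 (SE 0.19, edgeR adjusted p = 8.43e-07), with a mean of 207 CPM at P21 and 191 CPM at P60 in Exc_26 and 64.8 and 24.5 CPM in the others.

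Cplx2 moved the other way round. At P21 it was at 122, 81.9 and 105 CPM in Exc_26, below the 237 to 391 CPM of the other neurons. At P60 it was at 162, 193, 199 and 253 CPM in Exc_26 and between 182 and 281 CPM in the other neurons. The log2 difference was 1.36 (SE 0.19, edgeR adjusted p = 7.02e-09). Against the 3 most similar clusters the log2 differences of Bcl11b, Cxcl12, Nrip3 and Cplx2 were 1.00, 1.17, 1.34 and 1.28 (edgeR adjusted p between 0.000308 and 0.0108), and these 4 genes passed in 14 of 14 other settings. In the other excitatory neurons the summed pyramidal tract markers were also higher at P21 (595 to 717 CPM) than in saline mice (347 to 528 CPM). P21 cells were assigned to clusters by correlation, and the part of this assignment in the differences was not tested. The mix of clusters in the comparison cells also differed by age. Over all P60 libraries, Exc_20 held 175 of the 14197 other excitatory neurons, and at P21 it held 495 of 5754. Among the 3 most similar clusters, Exc_18 had 246 cells at P60 and 376 at P21, and Exc_25 had 1025 and 359. The part of this mix in the differences was not tested.

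The remaining genes of the 10 with the smallest p rested on fewer UMIs or fewer settings. Tmsb10, a thymosin that binds actin, had a log2 difference of 0.71, Synpr, a synaptic vesicle protein, of -1.71 and Wnt4, a secreted Wnt ligand, of -1.85. Wnt4 was at 29.4, 55.9 and 33.8 CPM at P21 and at 0, 10.0, 12.2 and 4.08 CPM at P60 in Exc_26, and its call was lost without P60 library 12, P21 library 1 or P21 library 2. Tmsb10 lost its call without P60 library 5, and against the 3 most similar clusters it was at 0.72 and did not pass. Cartpt, a neuropeptide precursor, had a log2 difference of -4.58, but 49 of its 94 UMIs in P21 library 1 lay in 1 cell of 114, and against the 3 most similar clusters it did not pass (edgeR adjusted p = 0.739). Cplx3 and Nxph4, the layer 6b markers, had fitted log2 differences of 4.92 and 12.65 that came from 20 and 6 UMIs, each in 1 cell of library 11. Nxph4 had 0 UMIs in Exc_26 in the other 3 saline and all P21 libraries, so its value is set by the handling of zeros and is no estimate of size, and without that library Cplx3 stood at -4.23 and Nxph4 could not be fitted.

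**Figure D5:**
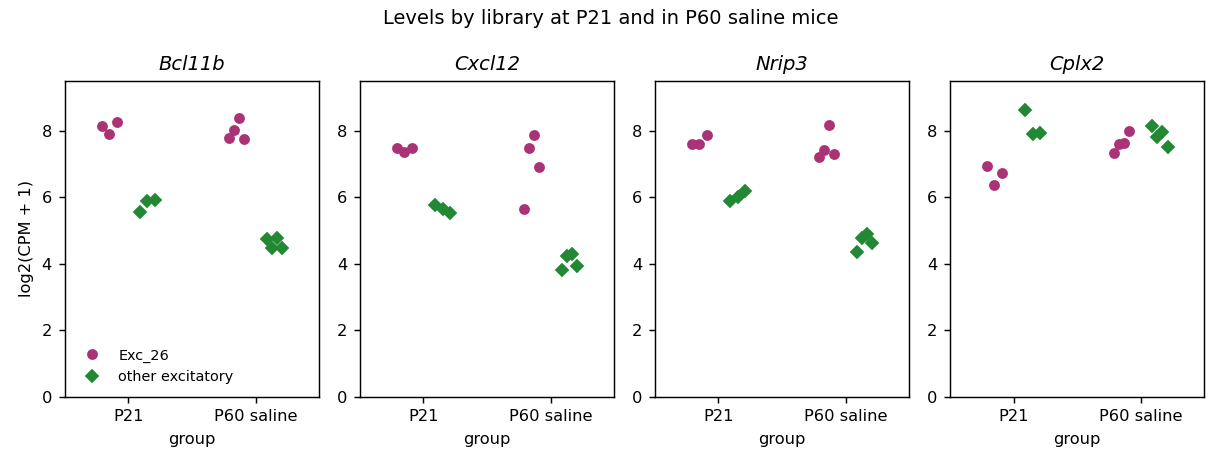
Levels as log2(CPM + 1) of Bcl11b, Cxcl12, Nrip3 and Cplx2 in Exc_26 (circles) and in the other excitatory neurons (diamonds), each point a library of P21 or P60 saline mice. Bcl11b, Cxcl12 and Nrip3 are lower at P60 in every library of the other neurons while the Exc_26 libraries of the 2 ages overlap, and Cplx2 is higher at P60 in every library of Exc_26 alone.

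For cocaine self-administration, the comparison over all phases could use 4 cocaine and 4 saline libraries. No gene of 6306 passed (0.0%) with edgeR or DESeq2, and 236 had an unadjusted p under 0.05. Leaving out single libraries gave 0 to 4 calls, with 4 without saline library 11. Among the lists, the 13 immediate early genes had a median log2 change of 0.18, the 9 pyramidal tract markers of 0.14 and the 13 cholesterol synthesis genes of -0.43, beside -0.003 for all genes. The difference between Exc_26 and the other excitatory neurons in the cocaine change was tested on 11569 genes with 0 calls by edgeR and by DESeq2 and 339 at an unadjusted p under 0.05. In the other excitatory neurons of the same libraries 0 of 13125 genes passed over all phases (1091 at an unadjusted p under 0.05) and 0 at 15 days (1073).

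Within a phase, only 15 days of withdrawal had 2 libraries of each treatment with enough cells. There, 2 of 6306 genes were higher in cocaine mice (0.0317%) and none lower with edgeR, 183 had an unadjusted p under 0.05, and DESeq2 called 0. Cck, the precursor of the neuropeptide cholecystokinin, was at 1634 and 1353 CPM in cocaine libraries 9 and 10 and at 199 and 501 CPM in saline libraries 11 and 12, a log2 change of 2.09 (SE 0.32, edgeR adjusted p = 0.0205). The other P60 libraries of Exc_26 lay between 169 and 319 CPM and the P21 libraries at 1909, 942 and 740.0 CPM. Rprml, a gene related to the cell cycle regulator Reprimo, was at 215.9 and 219.4 CPM against 69.0 and 69.3 CPM, a log2 change of 1.66 (SE 0.33, edgeR adjusted p = 0.0424). Leaving out a library of this phase leaves 1 in its arm, whose spread is then taken from the other groups. Both calls were lost without either cocaine library, with log2 changes of 1.98 and 2.17 for Cck and of 1.71 and 1.61 for Rprml, that of Rprml also without saline library 11, the log2 change of Cck was 2.96 without saline library 12, and the count was 26 without saline library 12, 12 without library 7 and 11 without library 5. Without saline library 11 it was 3. The other excitatory neurons of the 4 libraries had log2 changes of 1.73 for Cck and 1.41 for Rprml that did not pass (edgeR adjusted p = 0.630 and 0.135).

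Libraries 9 and 10 also stood apart in the genes that fell with age. Of the 65 genes lower in saline P60 mice than at P21, 47 (72.3%) lay above every saline library in library 9 and 44 (67.7%) in library 10, beside 21.1% and 17.5% of all 6529 genes. Cocaine libraries 4 and 8 held 13 and 7 (10.8%) such genes, beside 18.2% and 11.7%. The genes had been chosen for low levels in the saline libraries, so these counts are a description. The median log2 ratio to the saline mean was 0.85 in library 9 and 0.59 in library 10. Junb was at 99.3 and 56.5 CPM in libraries 9 and 10, Klc1, a kinesin light chain, at 684 and 589 CPM against 232 to 481 CPM in saline mice, and Tomm20 at 184 and 149.6 CPM. The same 65 genes lay above every saline library in the other excitatory neurons for 46 genes in library 9 (70.8%) and 44 in library 10 (67.7%), beside 19.7% and 13.5% of all 6529 genes in those cells. Libraries 9 and 10 are the only cocaine libraries at 15 days, beside saline libraries 11 and 12. Treatment cannot be told apart from other differences that both of them share.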

How the data were processed

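Single cells of the PFC were captured by the authors with the 10X Chromium platform, reads were aligned to mm9 with Cell Ranger, and clusters were made with Seurat from P60 cells. The deposited values are raw UMI counts per gene and cell, with a deposited table that lists class, cluster and mitochondrial fraction (0 to 1, printed here as percent) for the retained cells. The authors' methods describe an upper limit on genes per cell against doublets, but the Exc_26 cells reach 6769 genes, above that limit, so its use cannot be seen in these cells, and no doublet caller was run here. The 13 mitochondrial and 143 ribosomal protein genes (8.29% to 10.8% of the UMIs) were left out, and 25989 of 26145 genes remained, 149 symbols being listed more than once. UMIs were summed over the Exc_26 cells of a library with at least 10 cells. CPM, means and SDs are over libraries.

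Sums were tested in R 4.3.3 with edgeR 4.0.16 (TMM, filterByExpr, robust quasi-likelihood fits, Benjamini-Hochberg adjustment over all genes tested), with DESeq2 1.42.0 as an alternative. Scripts were tested on simulated data. Permutation tests and intervals used scipy 1.17.1 under python 3.11.15. Exact intervals are Clopper-Pearson at 95%, limits for a count of 0 take 3 counts, and both cover counting error only. Libraries carry the sample numbers of their titles. For P21 the methods give 4 mice for 3 libraries, so how they were divided is not known. The P21 libraries may share mice and may not be independent, and p-values measure the spread between these libraries.

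The cluster, the gene lists and the tests were chosen with earlier results of these data known. Genes named are those of the lists, the 20 highest ratios to the next cluster at 20 CPM or more, the 10 rises and 10 falls with the smallest p among called genes whose libraries do not overlap, and the 10 smallest p of an interaction; others were named after their values were seen. Gene positions are from GENCODE vM1 (NCBIM37) and promoters from RefSeq. Alternatives were other cell minimums, filters, scalings, comparison cells, equal cell numbers and leaving out each library in turn.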

Additional observations from a re-analysis of the deposited data

Results flagged for a closer look

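When groups of libraries are checked for 1 far from the others, chance gives about 1 in 20 only for independent groups. The groups here shared libraries and included genes named for their values, so no excess is read from the count. Of 108 groups of 4 to 8 libraries, 11 held such a library. In saline mice these were Psmc5 at 639 CPM and Hist1h2bc at 7.02 CPM in library 5, Rprml at 14.05 CPM in library 5, Cck at 501 CPM in library 12, and the layer 6b genes Cplx3 at 40.6 CPM and Nxph4 at 12.2 CPM in library 11, where each came from 1 cell. In cocaine mice they were the median of 21940.5 UMIs per Exc_26 cell in library 8, Oma1 at 33.9 CPM and Tmsb10 at 4172 CPM in library 4, Clcn2 at 64.6 CPM in library 9, and Cartpt at 61.5 CPM in library 8, where 39 of 43 UMIs lay in 1 cell.

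The difference between Exc_26 and the other excitatory neurons in the change from P21 to saline P60 mice is given for the 10 genes with the smallest p. Not all of them held: the values of Cplx3 and Nxph4 came from 1 cell for each gene, and Cplx3 turned to -4.23 without P60 library 11. Against the 3 most similar clusters Cartpt was at -1.83, Tmsb10 at 0.72 and Cplx3 at 5.30, and none of the 3 passed. Tmsb10 was also lost without P60 library 5, and Wnt4 without P60 library 12, P21 library 1 or P21 library 2. DESeq2 called 4 of the 10, namely Bcl11b, Cxcl12, Nrip3 and Cplx2. Nxph4 had 0 UMIs in all P21 and 3 of 4 saline libraries of Exc_26, so its fitted value is no estimate of size. The log2 differences, with adjusted p from edgeR's test of the interaction, were -4.58 for Cartpt (5.23e-09), 1.36 for Cplx2 (7.02e-09), 1.41 for Cxcl12 (7.02e-09), 4.92 for Cplx3 (1.5e-07), 1.22 for Nrip3 (8.43e-07), 1.05 for Bcl11b (3.39e-05), 0.71 for Tmsb10 (0.00015), 12.65 for Nxph4 (0.00015), -1.71 for Synpr (0.000502) and -1.85 for Wnt4 (0.00917).

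The P60 libraries with fewer than 10 Exc_26 cells entered no comparison. Pou3f1 was at 50.0 CPM in the 4 cells of library 3, from 1 UMI, beside 2.79 CPM in its other excitatory neurons, and at 101 CPM in the 6 cells of library 6, from 7 UMIs, beside 2.60 CPM. The 4 cells of library 3 had a median of 4565 UMIs against 13790.5 in the other excitatory neurons of that library.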

How the results depend on the processing

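The count for saline P60 against P21 (81, 16 higher and 65 lower) was 280 without a filter on low counts (56 and 224), 129 with at least 20 cells (32 higher), 141 with the cocaine libraries added (49 higher) and 42 with equal cells per library (29 lower), and from 14 to 139 over the libraries left out (2 to 77 higher, 12 to 97 lower). The count for cocaine over all phases (0) was 14 without the filter (12 and 2), 1 with at least 20 cells (1 higher), and 0 to 4 over the libraries left out (0 to 2 each way). At 15 days (2 higher) it was 0 with DESeq2, 11 without the filter (10 and 1), 11 with at least 20 cells, 11 from the libraries of that phase alone, and 0 to 26 over the libraries left out (0 to 26 higher, 0 to 2 lower). The count for the difference in the age change (31) was 4 with DESeq2 (4 higher, 0 lower), 10 higher without the filter, and 14 to 38 over the libraries left out (9 to 17 higher, 2 to 21 lower). That for the cocaine change (0) was 3 with at least 20 cells (3 higher) and 0 to 5 over the libraries left out (0 to 4 higher, 0 to 1 lower). Over the libraries left out, the difference in mean share ranged from -1.72 to -0.357 percentage points for saline P60 minus P21, so that P21 was the higher, and from -0.509 to 0.395 for cocaine minus saline. P21 libraries alone, added after seeing the data, gave differences of 1418 UMIs, 356 genes and 0.889 percentage points, with no p under 0.25. Of the settings for named genes, 275 of 315 kept their call in the age comparison and 40 lost it, 25 of 32 at 15 days, and 133 of 148 for the difference, where Cplx3 ranged from -4.23 (without P60 library 11, a reversal) to 5.55 over the libraries left out. These counts include settings that could not lose a call, such as dropping the fold cutoff. In both age comparisons a minimum of 5 cells used the same libraries, and a minimum of 20 cells equalled leaving out P60 library 5. Of 60 settings for the 20 marker ratios, 11 moved by more than the spread between libraries and 0 reversed. The causes were not tested. With few cells per library, genes of low level could not be fitted. No paired analysis was possible because the replicate numbers of the groups were given in accession order and mark no shared mouse, batch or day; only cells of the same library were paired.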
